A study of Homo sapiens with 5 samples.

Results

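The HOX cluster genes of LM2 breast cancer cells were examined for binding by E2F1, MYC and Fra-1. The members are the protein-coding genes named HOXA, HOXB, HOXC or HOXD followed by a number, and 39 of the 20098 protein-coding genes on chromosomes 1 to 22 and X met this rule. There are 11 in HOXA, 10 in HOXB, 9 in HOXC and 9 in HOXD. Each cluster was taken from its outermost HOX genes plus 20 kb on either side (hg19), which gives HOXA at chr7:27112612-27259710, HOXB at chr17:46585888-46826112, HOXC at chr12:54312615-54469814 and HOXD at chr2:176937449-177075635, 682.711 kb in all. LM2 is a derivative of the breast cancer line MDA-MB-231 that metastasizes to the lung. The study's ChIP methods name no treatment of the cells. A supplementary legend links the ChIP-Seq to lysates of LM2 cells with a control vector or an shRNA, so whether the cells carried a vector is not settled here. The study used ChIP-Seq to ask where these transcription factors (TFs) lie across the genome and whether they meet at the same promoters. A single library was made per factor with an antibody against Fra-1 (the product of FOSL1, a subunit of the AP-1 TF), c-Myc or E2F1, and each was compared with the same input library. The lists hold 17320 Fra-1, 4867 MYC and 36933 E2F1 peaks. The fourth TF was not analysed here, and the EZH2 library was not used here.

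HOX genes encode homeodomain TFs that give cells their position along the body axis. Within a cluster the genes stand in the order in which they act from head to tail, and genes of the same rank in different clusters are called a paralog group, numbered from the anterior end. Most HOX promoters are rich in CpG, and Polycomb and Trithorax proteins keep them off or on. E2F1 and MYC are usually found at promoters, E2F1 at those of cell cycle genes among others, and AP-1 is mostly found at distal elements.

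With 1 library per factor there are no replicates, so no difference between factors or gene groups was tested. Tags kept by the peak caller ranged from 10758036 for the input to 23853621 for MYC. Intervals below are 95% intervals (Wilson for shares, exact Poisson for densities) and cover counting error only. They treat genes and peaks as independent, but HOX genes lie in 4 clusters and neighbours can share peaks and nearest summits. The antibody labels were checked by motifs within 50 bp of summits. The AP-1 site (TGACTCA or TGAGTCA) was at 53.3% of Fra-1 summits, against 6.09% of MYC and 12.2% of E2F1 summits. The E-box CACGTG was at 16.8% of MYC summits, against 1.55% and 2.56%. The E2F site (TTTCCCGC, TTTGGCGC, TTTCGCGC or TTTGCCGC) was at 1.68% of E2F1 summits, against 1.81% of MYC and 0.347% of Fra-1 summits, so this motif did not set the E2F1 list apart from the MYC list.

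The sequences below are the 101 bp around summits in the clusters (GRCh37, plus strand), with an AP-1 site in capitals where the window holds one on either strand. They are shown because they carry all Fra-1 peaks of the clusters and strong E2F1 peaks of HOXC and HOXD. They also hold the only E2F1 summit of the clusters with a site of the 3 motifs within 50 bp.
Fra-1, between HOXA4 and HOXA5, chr7:27174130-27174230: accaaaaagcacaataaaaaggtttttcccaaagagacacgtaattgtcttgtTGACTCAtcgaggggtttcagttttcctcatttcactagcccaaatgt
Fra-1, between HOXA4 and HOXA5, chr7:27175646-27175746: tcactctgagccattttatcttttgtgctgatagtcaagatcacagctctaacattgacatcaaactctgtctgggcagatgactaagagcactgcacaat
Fra-1, beyond HOXB9 in LINC03057, chr17:46715341-46715441: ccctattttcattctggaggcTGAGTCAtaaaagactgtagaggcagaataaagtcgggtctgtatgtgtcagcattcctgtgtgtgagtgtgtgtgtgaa
E2F1, HOXC9 distal start site, chr12:54389407-54389507: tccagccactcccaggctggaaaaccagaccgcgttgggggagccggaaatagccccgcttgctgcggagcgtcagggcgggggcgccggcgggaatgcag
E2F1, HOXD1 promoter, chr2:177053410-177053510: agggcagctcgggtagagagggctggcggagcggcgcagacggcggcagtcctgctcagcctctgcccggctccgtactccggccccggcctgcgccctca
E2F1, HOXC6 distal start site, chr12:54384123-54384223: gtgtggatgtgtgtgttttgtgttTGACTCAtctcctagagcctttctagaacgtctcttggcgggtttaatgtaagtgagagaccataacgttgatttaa

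Most HOX promoters held no peak of the 3 factors. A gene was counted when a peak overlapped the window from 2 kb upstream to 2.5 kb downstream of any of its annotated start sites. E2F1 peaks were at 10 of 39 HOX genes (25.6%, interval 14.6 to 41.1), against 61.3% of all protein-coding genes. MYC peaks were at 1 of 39 (2.56%, interval 0.454 to 13.2), against 17.8%. Fra-1 peaks were at 0 of 39, which allows a share of up to 7.69% (3 counts of 39, with a Wilson upper limit of 8.97%), against 13.2%. No HOX gene had peaks of all 3 factors, and 4.67% of protein-coding genes did. As 0 of 39 allows up to 7.69%, the HOX share cannot be told apart from 4.67%. The genes with E2F1 were HOXA13, HOXB3, HOXB6, HOXB9, HOXC4, HOXC5, HOXC6, HOXC9, HOXD1 and HOXD4, and HOXB9 was the gene with MYC. The other 29 genes (74.4%, interval 58.9 to 85.4) had none. They include every HOXA gene but HOXA13. In the other clusters they were HOXB1, HOXB2, HOXB4, HOXB5, HOXB7, HOXB8, HOXB13, HOXC8, HOXC10, HOXC11, HOXC12, HOXC13, HOXD3, HOXD8, HOXD9, HOXD10, HOXD11, HOXD12 and HOXD13.

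**Figure D1:**
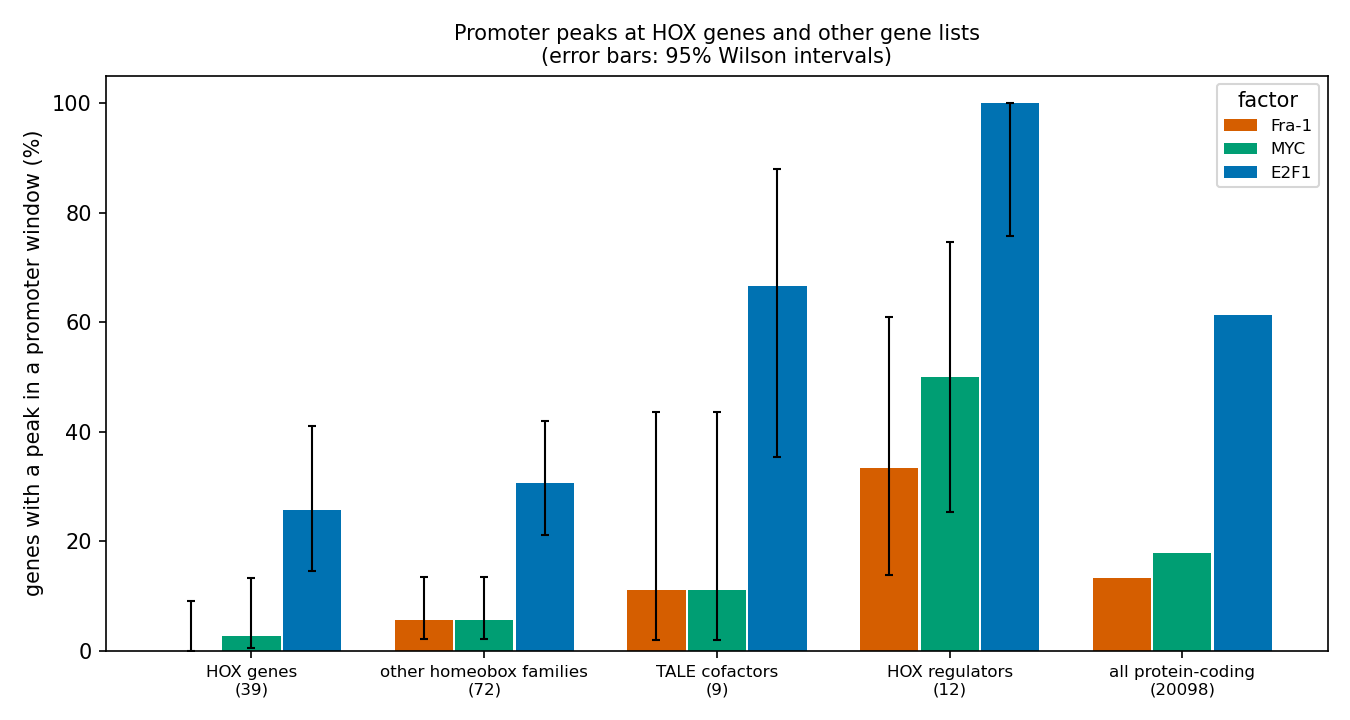
Share of genes (%) with a Fra-1, MYC or E2F1 peak in a promoter window, for HOX genes and 4 other groups, with 95% Wilson intervals as error bars. The HOX genes reach 25.6% for E2F1, against 61.3% of all protein-coding genes and 100% of the 12 genes that regulate HOX transcription.

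With the canonical start site of each gene alone, E2F1 was left at 6 of 39 HOX genes (15.4%, interval 7.25 to 29.7), against 57.3% of protein-coding genes. The 6 were HOXA13, HOXB6, HOXB9, HOXC5, HOXD1 and HOXD4. HOXB3, HOXC4, HOXC6 and HOXC9 were reached through start sites other than the canonical. MYC stayed at 1 gene, against 15.8%, and Fra-1 at 0, against 7.2%. The Fra-1 count of 0 of 39 allows up to 7.69%, so it cannot be told apart from 7.2%. When E2F1 was limited to as many peaks as MYC had (the top 4867 by −log10 q), 3 HOX genes were left (HOXB9, HOXC6 and HOXC9), against 25.7% of protein-coding genes.

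Over 500 bp on either side of the canonical start site, 32 of 39 HOX genes (82.1%) had a GC content of at least 50% and an observed to expected CpG ratio of at least 0.6, against 64.2% of protein-coding genes. Among these CpG-rich promoters, E2F1 peaks were at 5 of 32 HOX genes (15.6%), against 77.8% of the 12907 protein-coding genes. The MYC peak of HOXB9 was the only 1 of the 32, against 22.8%. The median GC content was 63.5% for the 6 HOX genes with E2F1 and 59.7% for the 33 without, and 63.5% and 55.9% for all protein-coding genes with and without it. The median CpG ratio was 0.729 for those HOX genes with E2F1 and 0.775 for those without, and over all protein-coding genes it was 0.789 with E2F1 and 0.375 without.

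HOXB9, a posterior HOX gene whose homeodomain factor patterns the trunk skeleton, had the E2F1 peak with the largest fold enrichment in the 4 clusters and all of their MYC peaks. Its start site is at position 46703720 of chromosome 17, on the minus strand. The largest E2F1 peak (chr17:46703357-46704439) had a fold enrichment of 43.1, with a pileup of 68 fragments and a summit 201 bp upstream of the start site. Only 2.84% of all E2F1 peaks reached that fold enrichment. The other E2F1 peaks of the window had fold enrichments of 14.7 and 8.84, with summits 532 and 1146 bp downstream. MYC gave 3 peaks there, with fold enrichments of 4.88, 6.42 and 8.43 and pileups of 6, 8 and 11 fragments. All overlapped an E2F1 peak. The largest (chr17:46703837-46704062) had its summit 267 bp upstream of the start site and 66 bp from the E2F1 summit, and 22.5% of MYC peaks were as high or higher. The MYC list had a median pileup of 11 and a smallest pileup of 5. The antisense gene HOXB-AS4 shares this promoter with HOXB9.

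HOXC9 and HOXC6 shared the next largest peak. HOXC9 is the group 9 gene of HOXC, and HOXC6 is a group 6 gene with distal start sites that lie among the posterior HOXC genes. The E2F1 peak at chr12:54389037-54389721 had a fold enrichment of 35.6 and a pileup of 50, and 5.68% of E2F1 peaks were as high or higher. Its summit was 164 bp from a distal HOXC9 start site, 4488 bp from the canonical HOXC9 start site, and in an exon of the antisense gene HOXC-AS2. HOXC6 had 6 E2F1 peaks over its start sites, of which 3 also lay in windows of HOXC4 and 2 in windows of HOXC9. The window of its canonical start site held none. The E2F1 peak at the most distal HOXC6 start site had a fold enrichment of 4.11, a summit 235 bp from that start site and the AP-1 site TGACTCA shown above. It was weak, as 95.9% of E2F1 peaks were as high or higher.

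HOXD1 and HOXD4, anterior genes of HOXD, had E2F1 peaks directly at their canonical start sites. At HOXD1 the larger peak (chr2:177053329-177053614) had a fold enrichment of 19.2 and a summit 64 bp downstream of the start site. The smaller, with a fold enrichment of 8.09, had its summit 30 bp from a start site of HAGLR, the long noncoding gene that runs the other way from HOXD1. At HOXD4 a peak with a fold enrichment of 8.25 had its summit 2 bp from the start site, and a peak of 17.6 followed 1092 bp downstream. The windows of HOXD4 and MIR10B, the microRNA gene beside it, overlap at both peaks.

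The remaining genes with E2F1 had lower values. HOXB6 and HOXB3 share their start region and the same 3 peaks, with fold enrichments of 7.28, 10.7 and 9.63. HOXC4 had 14.2, 12.1 and 6.84 at its distal start site, and HOXC5 had 6.14 and 4.97. HOXA13, which acts in limb and genital development, was the only HOXA gene with a peak (chr7:27240020-27240314, fold enrichment 9.59). That summit was 409 bp from the HOXA13 start site and 63 bp from a start site of HOTTIP, a long noncoding RNA known to act on the posterior HOXA genes. Across the 10 genes the largest fold enrichment per gene had a median of 15.9 and ranged from 6.14 to 43.1, against a median of 22 (quartiles 13.4 and 32.5) for all 12321 protein-coding genes with E2F1. A value of 43.1 or more was found at 9.94% of these.

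**Figure D2:**
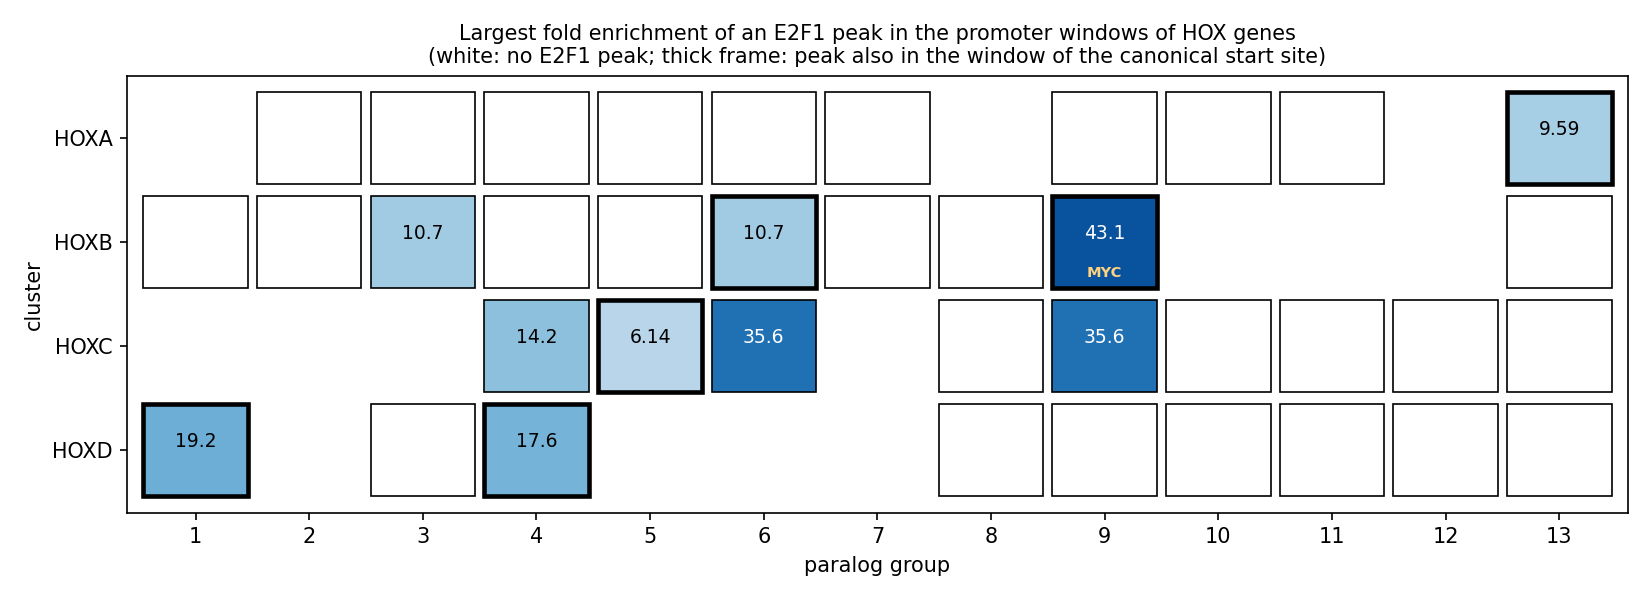
HOX genes by cluster (rows) and paralog group (columns), with the largest fold enrichment of an E2F1 peak in any promoter window written in the box. White boxes have no E2F1 peak, thick frames mark a peak at the canonical start site, and HOXB9 is the only gene with MYC.

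By cluster, E2F1 was at 1 of 11 HOXA genes (9.09%, interval 1.62 to 37.7), 3 of 10 HOXB genes (30%, interval 10.8 to 60.3), 4 of 9 HOXC genes (44.4%, interval 18.9 to 73.3) and 2 of 9 HOXD genes (22.2%, interval 6.32 to 54.7). These intervals overlap. With canonical start sites the counts were 1, 2, 1 and 2, so the higher count in HOXC came from distal start sites. By position, E2F1 was at 4 of 12 genes of groups 1 to 4, 3 of 11 of groups 5 to 8 and 3 of 16 of groups 9 to 13 (18.8%, interval 6.59 to 43.0). No order along the clusters can be read from these counts. Of the 13 paralog groups, 7 had E2F1 in at least 1 member and 6 had none, and at most 2 members of any group had it.

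The clusters were not poor in E2F1 peaks as stretches of DNA, although most of their promoters lacked one. The 32 E2F1 peaks gave 4.69 per 100 kb (interval 3.21 to 6.62), against 1.3 over the chromosomes used, and covered 1.86% of the regions, against 0.550%. After peaks within 1 kb were merged, 18 were left (2.64 per 100 kb, interval 1.56 to 4.17), against 0.861. HOX genes are packed at 5.71 per 100 kb, against 0.709 protein-coding genes over the chromosomes, and per gene there were 0.821 E2F1 peaks, against 1.84. HOXB had 13 of the 32, HOXC 10, HOXD 7 and HOXA 2. HOXA thus had 1.36 per 100 kb (interval 0.165 to 4.91) and HOXB 5.41 (interval 2.88 to 9.25).

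**Figure D3:**
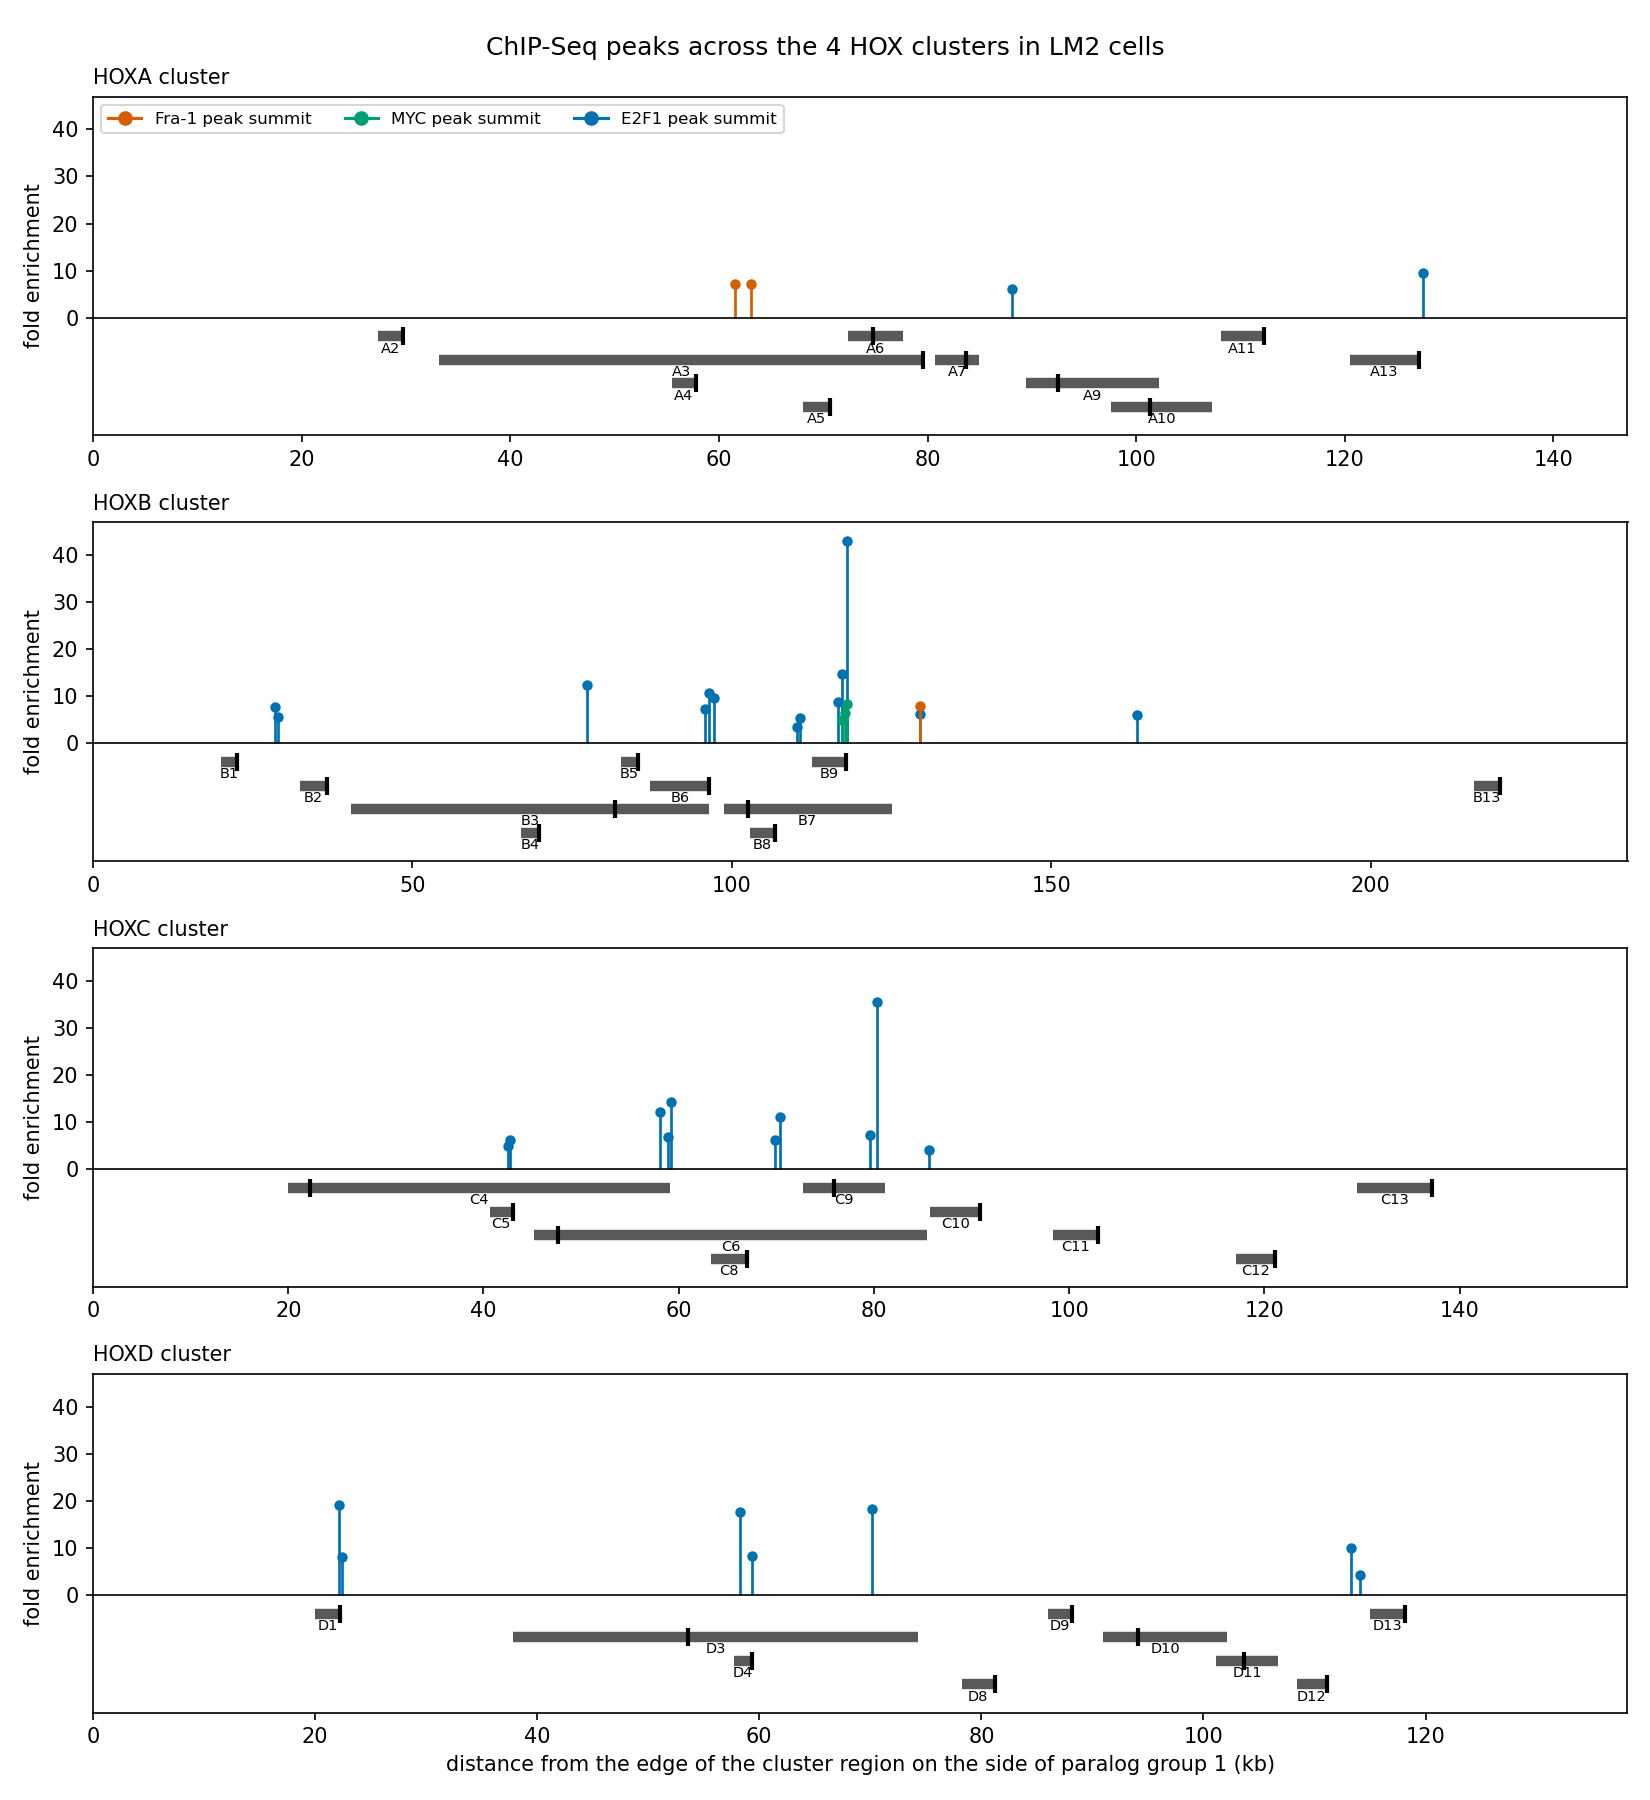
Peaks along the 4 clusters, oriented with paralog group 1 at the left, with distance in kb from the edge of the region on the x axis. Stick height is the fold enrichment at the summit, grey blocks are HOX genes and black ticks their canonical start sites. E2F1 peaks reach 43.1 at HOXB9 and 35.6 at HOXC9, and long stretches of each cluster have none.

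In 19 of the 32 E2F1 peaks (59.4%, interval 42.3 to 74.5) the peak overlapped a HOX promoter window. The summit was within 1 kb of any HOX start site for 16 (50%, interval 33.6 to 66.4), against 52.9% of all E2F1 summits within 1 kb of a protein-coding start site. For canonical start sites these were 11 of 32 (34.4%, interval 20.4 to 51.7) and 42.7%. Genes are denser in the clusters (5.71 per 100 kb, against 0.709), so more of their sequence lies near a start site. These shares were not adjusted for that. A further 12 peaks lay outside the promoter windows of all annotated genes, and 1 lay only in that of LINC03057. Among the 12, named after their values were seen, the largest were in an intron of HOXD3 (chr2:177005212-177005690, fold enrichment 18.4), within HOXB3 between HOXB4 and HOXB5 (12.4), upstream of HOXC8 (11.1) and between HOXD12 and HOXD13 (10.0). The HOXD3 and HOXB4 genes themselves had no peak in their windows.

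The E2F1 peaks of the clusters had a median fold enrichment of 8.17 (range 3.42 to 43.1), against 8.88 for the whole list, and 14 of 32 (43.8%, interval 28.2 to 60.7) were above that value. The middle of the list ran from 6.09 to 16.3 (quartiles). Among the 4867 E2F1 peaks with the largest −log10 q, 2 were in the clusters, those of HOXB9 and HOXC9. The local background recovered from the input had a median of 0.932 at these peaks and 0.996 over the list. Peak width was 295 bp against 290 bp.

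**Figure D4:**
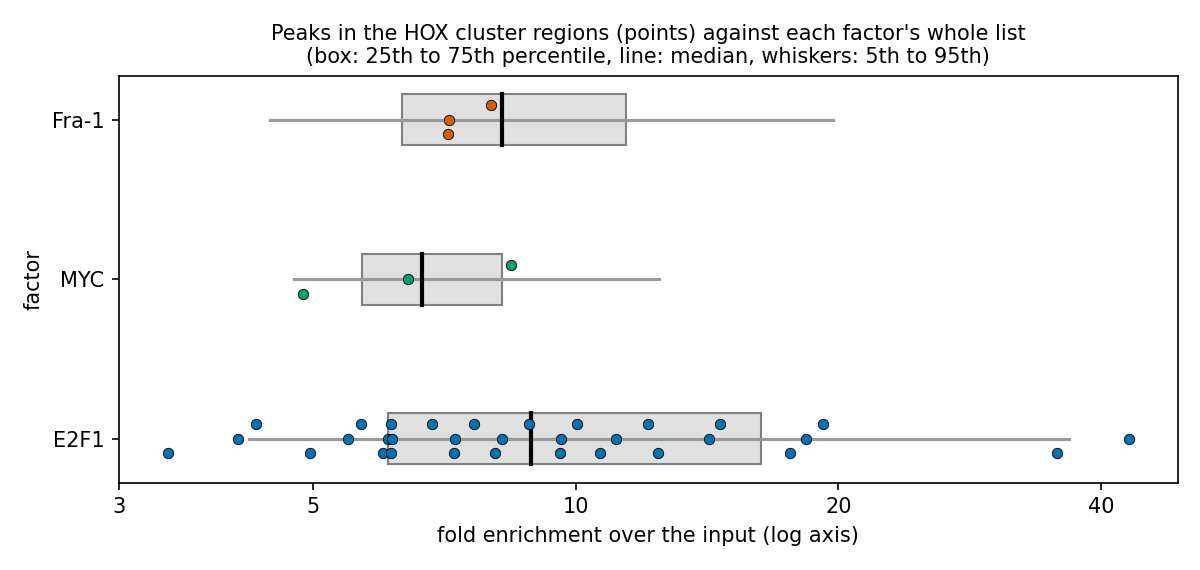
Fold enrichment (log axis) of each peak in the HOX cluster regions (points) against the whole list of each factor (box from the 25th to the 75th percentile, line at the median, whiskers from the 5th to the 95th). The 3 Fra-1 peaks lie below their list median of 8.24, and 14 of 32 E2F1 peaks lie above theirs of 8.88.

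Stretches with no E2F1 summit took in whole groups of genes. In HOXA no summit was found from the anterior edge of the region for 88.1 kb, which holds the start sites of 7 HOXA genes. In HOXC the longest such stretch was 71.6 kb, with HOXC10, HOXC11, HOXC12 and HOXC13. In HOXB it was 76.9 kb with HOXB13, and in HOXD 43.1 kb with HOXD8, HOXD9, HOXD10, HOXD11 and HOXD12. The median distance from a canonical start site to the nearest E2F1 summit was 7540 bp for HOX genes, from 2 bp at HOXD4 to 55739 bp at HOXA2, against 374 bp for protein-coding genes. It was 13314 bp in HOXA, 5642 bp in HOXB, 5243 bp in HOXC and 4665 bp in HOXD.

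**Figure D5:**
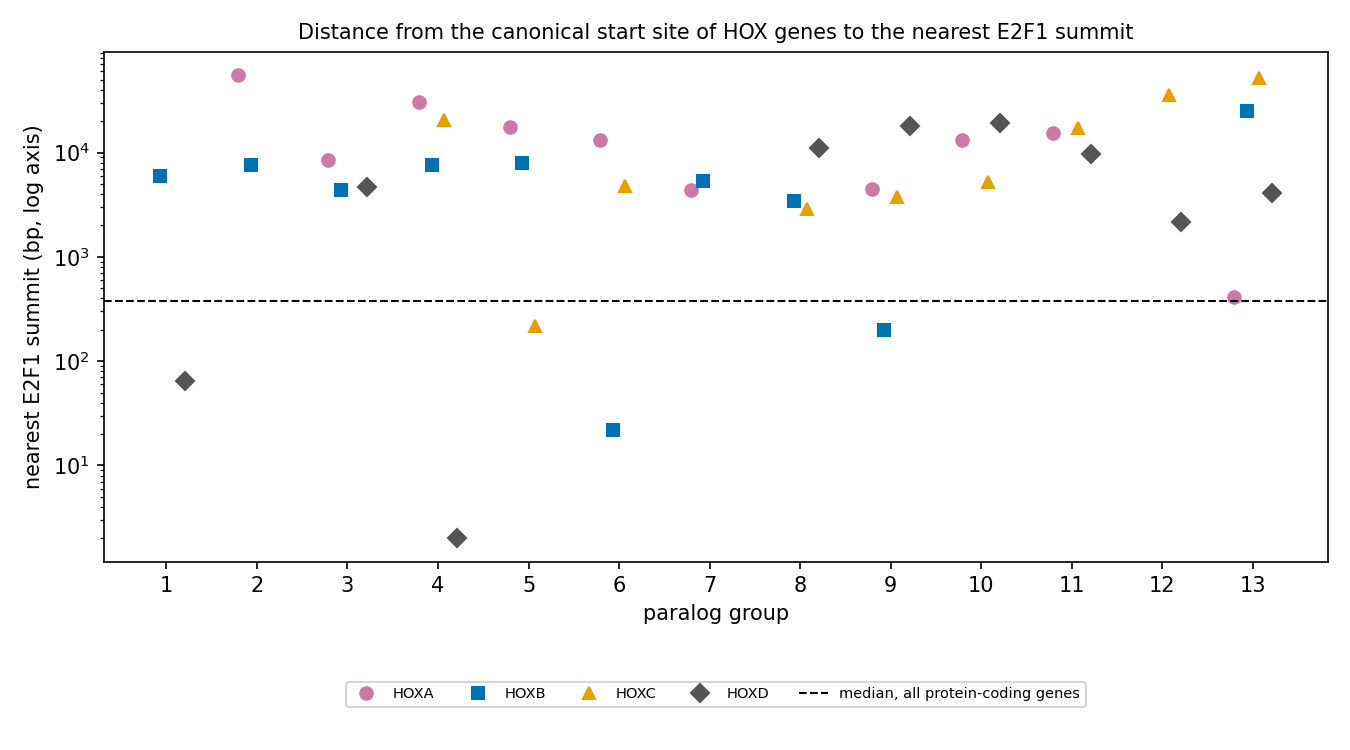
Distance in bp (log axis) from the canonical start site of HOX genes to the nearest E2F1 summit, by paralog group and cluster. The dashed line is the median of all protein-coding genes, 374 bp, and HOXB6, HOXB9, HOXC5, HOXD1 and HOXD4 lie below it.

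Fra-1 was found at 3 places in the clusters, 0.439 per 100 kb (interval 0.0906 to 1.28), against 0.610 over the chromosomes used. HOXA had 2 of them between HOXA4 and HOXA5, within introns of HOXA3 transcripts and of the antisense gene HOXA-AS3. They had fold enrichments of 7.14 and 7.16 (chr7:27175637-27175792 for the larger) and pileups of 13 and 14. The nearest HOX start sites were 3781 and 4129 bp away. The first of the pair holds TGACTCA 6 bp from its summit, and the second holds neither AP-1 sequence within 100 bp. The peak in HOXB (chr17:46715339-46715473) had a fold enrichment of 8.0 and lay in LINC03057, with TGAGTCA 26 bp from its summit. The nearest canonical HOX start site was that of HOXB9, 11671 bp away. The nearest of any HOX start site was that of a HOXB7 transcript, 4457 bp away. This Fra-1 peak overlapped an E2F1 peak with a fold enrichment of 6.14 whose summit was 31 bp away. All 3 were below the median of the Fra-1 list (8.24). HOXC and HOXD had no Fra-1 peak. The median distance from a canonical start site to the nearest Fra-1 summit was 29460 bp in HOXA, 30028 bp in HOXB, 174668 bp in HOXC and 191295 bp in HOXD. Over all HOX genes it was 59679 bp, against 59165 bp for protein-coding genes, and 0 of 39 were within 1 kb, against 4.9%. A count of 0 of 39 allows up to 7.69%, so it cannot be told apart from 4.9%.

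MYC was confined within the clusters to the 3 HOXB9 peaks, which form a single site when peaks within 1 kb are merged. The 3 peaks gave 0.439 per 100 kb (interval 0.0906 to 1.28), against 0.171 over the chromosomes used. After merging the density was 0.146 (interval 0.00371 to 0.816), against 0.136. HOXA, HOXC and HOXD had no MYC peak, which for HOXA allows up to 2.51 per 100 kb by the exact interval. From HOXA start sites the nearest MYC summit was at least 1946357 bp away, and from HOXD start sites at least 1024726 bp. The median distance over all HOX genes was 1.02e+06 bp, against 127519 bp for protein-coding genes. It was 247012 bp in HOXC and 33756 bp in HOXB, where all MYC peaks lie at HOXB9. Genes of a cluster share nearest summits, so the median over all HOX genes rests on 4 clusters rather than 39 separate places.

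No stretch of the clusters had overlapping peaks of all 3 factors. The factors met in pairs only, MYC with E2F1 at HOXB9 and Fra-1 with E2F1 at LINC03057. Of the 32 E2F1 peaks, 3 (9.38%, interval 3.24 to 24.2) overlapped a peak of another factor, against 36.2% of the whole E2F1 list. The E-box was at 0 of 3 MYC summits, and the E2F site at 0 of 32 E2F1 summits within 50 bp, against list shares of 16.8% and 1.68%. The AP-1 site was within 50 bp of 2 of 3 Fra-1 summits, against 53.3% of the list. It was within 50 bp of 1 of 32 E2F1 summits, that of the distal HOXC6 start site, against 12.2%. Within 100 bp the E2F1 count was 2 of 32, against 17.7%, with the LINC03057 peak added.

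Of 17 antisense and long noncoding HOX genes, E2F1 was at 5 (29.4%, interval 13.3 to 53.1), against 24.9% of all annotated long noncoding genes. They were HAGLR, HOTTIP, HOXC-AS2, HOXB-AS3 and HOXB-AS4. MYC was at HOXB-AS4, against 5.56%, and Fra-1 at none (upper limit 18.4%), against 7.21%. Each of the 5 shares its E2F1 peaks with a HOX gene named above, whereas LINC03057, which is not in this list, had its Fra-1 and E2F1 peaks away from HOX windows. Of 7 annotated microRNA genes, 3 had an E2F1 peak within the window of the hairpin start, which is not the start of the primary transcript, against 10.1% of all annotated microRNA genes. MIR10A was not counted here. They were MIR10B (17.6), MIR615 (6.14) and MIR196A2 (4.11), beside HOXD4, HOXC5 and the most distal start site of HOXC6. MIR196A1, MIR196B, MIR3185 and AC009336.1 had none. These microRNAs are shown because the miR-196 family, which targets HOX transcripts, lies in 3 of the clusters with a shared seed (capitals, bases 2 to 8, from RefSeq, GRCh38.p14). Only the copy in HOXC had a peak, and that peak was weak. Of all E2F1 peaks 95.9% were as high or higher, and its −log10 q of 3.49 lay below the alternative cutoff of 5.
miR-196a-5p (MIR196A1 and MIR196A2): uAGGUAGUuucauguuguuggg
miR-196b-5p (MIR196B): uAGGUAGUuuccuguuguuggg
miR-10b-3p (MIR10B, miR-10b-5p not shown): aCAGAUUCgauucuaggggaau
miR-615-3p (MIR615): uCCGAGCCugggucucccucuu

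The 5 other protein-coding genes annotated in the regions, among them EVX2, PRAC1 and PRAC2, had no promoter peak of any factor. The 72 genes of 11 other homeobox families (among them DLX, LHX, PAX, NKX, IRX and POU) had E2F1 at 22 (30.6%, interval 21.1 to 42.0). MYC was at 4 (5.56%), against 17.8% of protein-coding genes, and Fra-1 at 4 (5.56%), against 13.2%. With canonical start sites Fra-1 was left at 1 of 72 (1.39%), against 7.2%. The intervals of these shares overlap those of the HOX genes, and the E2F1 share of both groups was below 61.3%. MYC was at SIX5, PAX8, POU2F1 and POU6F1, and Fra-1 at DLX4, PAX8, POU2F3 and POU2F2. The 6 ParaHox genes (CDX1, CDX2, CDX4, GSX1, GSX2 and PDX1), the nearest relatives of the HOX genes, had no peak of the 3 factors.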

How the data were processed

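The ChIP-Seq data were peak tables for E2F1, MYC and Fra-1, from 1 LM2 library each. Per the study's methods and the submitters' processing notes, the authors trimmed reads with Trimmomatic 0.27, aligned unique reads to a masked hg19 genome with Bowtie 0.12.5, removed duplicates with Picard and called peaks per library, without pooling, with MACS2 (2.0.10.20120913 in the file headers) at a q-value cutoff of 0.01 against 1 shared input. The deposited tables give the signal as fragment pileup at each summit. The authors' fold enrichment is its ratio to the local input background. That background was recovered here on the assumption that MACS2 added a pseudocount of 1 to both, and it is approximate. In the same tables the authors wrote p- and q-values on a −log10 scale. Sequence masked before alignment can hold no peak. The MYC list is the shortest although its library is the deepest, so counts of peaks are compared within a factor and not between factors.

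Coordinates are hg19, 1-based. Genes came from GENCODE 44 mapped to GRCh37 (63827 genes). The window of the study's methods was used for promoters, with overlap of at least 1 bp. HOX genes and other lists were chosen with earlier results of these data known. Given in full were genes with a MYC or Fra-1 promoter peak or with all 3 factors, and the 5 with the largest E2F1 fold enrichment. Positions were given for the largest peak per factor and cluster. Motifs were searched on both strands. Wilson and exact Poisson intervals were computed, and no test was run. Alternatives were a −log10 q or a fold enrichment of at least 5, lists of equal length, other windows, start sites and flanks, summits, merged peaks and a wider motif window. The restriction to CpG-rich promoters was added after seeing the data. Overlap, coverage and window functions were tested on simulated data. Software was Python 3.11.15 with scipy 1.17.1, pandas 2.3.3, numpy 2.4.6 and, for plots, matplotlib 3.10.9. All sample columns were mapped. The BED files hold the same peaks and were not used. Some genes and sequences of the lists are not reported here on their own, and 1 HOX gene is not drawn in the plots by gene.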

Additional observations from a re-analysis of the deposited data

How the results depend on the processing

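No paired analysis was possible because each factor has a single library. Over 26 results, 153 alternative values were computed, of which 130 stayed within the set limits, and 11 results moved under none. These counts do not measure stability. Gene counts of 0 could not move, because their alternatives used only fewer peaks, smaller windows or fewer start sites. With 3 peaks the limits of medians and shares were wide. The AP-1 share of Fra-1 summits went from 66.7% to 37.5% with flanks of 50 kb and still lay within its limit. With equal list lengths, E2F1 was at 3 HOX genes (0 in HOXA, 1 in HOXB, 2 in HOXC, 0 in HOXD, and 0 of groups 1 to 4 and 1 of groups 5 to 8), 2 E2F1 peaks were left in the clusters, covering 0.259% with a median fold enrichment of 39.3 and 100% within 1 kb of a HOX start site, and 0 Fra-1 peaks were left (0% covered). With canonical start sites, E2F1 was at 6 HOX genes (1 in HOXC, 2 of groups 1 to 4), and at 5 with CpG-rich promoters. With flanks of 50 kb there were 8 Fra-1 peaks covering 0.172%. At a −log10 q of at least 5, 1 MYC peak was left, covering 0.0331%. Merging left 18 E2F1 peaks and 1 MYC peak. These alternatives used fewer peaks, start sites or promoters, merged peaks or longer flanks, and what moved the values was not tested. The share of E2F1 among HOX genes stayed below that of protein-coding genes with canonical start sites and with equal lists. Coverage over unmasked bases was not run, because the genome used marks no repeats. With 3 peaks each, values for Fra-1 and MYC in the clusters rest on few fragments.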

Other observations

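Genes that act with or on HOX genes were counted in the same way, and no difference from the HOX genes was tested. The TALE cofactors, homeodomain proteins that bind DNA together with HOX proteins, had E2F1 at 6 of 9 (66.7%, interval 35.4 to 87.9), near the 61.3% of all protein-coding genes. MEIS2 had the largest fold enrichment (41.2), followed by MEIS1 (27.0), PKNOX1 (25.3) and PBX3 (23.5). MYC was at 1 of 9, PBX3 (4.84), a share of 11.1% (interval 1.99 to 43.5), against 17.8% of protein-coding genes.

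The 12 regulators of HOX transcription all had E2F1 (interval 75.8 to 100), against 61.3% of protein-coding genes. Fold enrichments ran from 5.89 at BMI1, a Polycomb protein, to 49.8 at EED, a subunit of the Polycomb methyltransferase. EZH2 (24.0) and SUZ12 (28.1), partners of EED, and CTCF (42.1), an insulator protein, had E2F1 only. MYC was at 6 of 12 (50%, interval 25.4 to 74.6), against 17.8%, with values of 9.63 at the retinoid receptor gene RXRA, 7.98 at the histone methyltransferase gene DOT1L, 7.04 at RARA, 5.53 at EED, 5.38 at KMT2A and 4.78 at MEN1. Fra-1 was at 4 of 12 (33.3%, interval 13.8 to 60.9), against 13.2%, with 33.5 at RXRA, 11.1 at KMT2A, 10.9 at RARG and 8.40 at DOT1L. None of the 12 had Fra-1 in the window of its canonical start site. With canonical start sites MYC was left at 4 of 12 (33.3%, interval 13.8 to 60.9), against 15.8%, without RXRA and RARA. E2F1 was left at 11 of 12 (91.7%, interval 64.6 to 98.5), against 57.3%. Among protein-coding genes with a CpG-rich promoter the share was 77.8%, which lies inside that interval. How many of the 12 have such a promoter was not counted. Over any start site, RXRA, KMT2A and DOT1L had all 3 factors, which 4.67% of protein-coding genes had. Of 13 TBX genes, a developmental family without a homeobox, 2 had E2F1 (15.4%, interval 4.33 to 42.2), against 61.3% of protein-coding genes. TBX6 alone had Fra-1 (7.69%), against 13.2%.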
